A study of Mus musculus with 8 samples.

Results

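Ribosome density (RD) was measured for 7466 transcripts in mouse oligodendrocyte progenitor cells (OPCs), the dividing cells that give rise to the myelinating oligodendrocytes of the central nervous system. RD was the ratio of ribosome footprint FPKM on the coding sequence (CDS) to RNA-seq FPKM on the whole transcript. A transcript entered where all 4 OPC libraries listed it at 1 FPKM or more, which 7466 of 10987 listed transcripts did. Of the others, 400 passed in RNA-seq and not in footprints, 299 passed in footprints and not in RNA-seq, and 2822 passed in neither. At the edge of this minimum, the lowest value was 1.00004 FPKM for Cc2d1a, which entered, and 0.999691 FPKM for Zfp991, which did not.

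A translating ribosome shields a short stretch of mRNA from nuclease, and sequencing of these stretches counts the ribosomes on each coding sequence. Divided by the abundance of the mRNA, the count says how densely a message is occupied, which depends on how often ribosomes start and on how fast they move. Short upstream reading frames in the 5′ leader, the bases around the start codon and the length of the coding sequence are all known to bear on this density. A high RD is therefore not by itself a high output of protein, and RD is relative, since FPKM give no absolute number of ribosomes.

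The series compared OPCs with the oligodendrocytes made from them, with 2 cultures of each, and footprints and total RNA were sequenced from each culture. The OPCs came from mouse epiblast stem cells of strain 129S/SvEv and were grown with 20 ng/mL bFGF and 20 ng/mL PDGFA, while the oligodendrocytes came from OPCs kept in medium with thyroid hormone. Per the study's methods, each lysate pooled several dishes frozen after 3 days and held emetine to stop elongation, footprints were cut with micrococcal nuclease, and RNA-seq used RNA of the same lysates. The cells were grown in culture, with no neurons or astrocytes added, and nothing in the labels says how many separate stem cell lines were used, so the spread is that between these 2 cultures. The 4 OPC libraries held an estimated 166.2 to 249.2 Mb of aligned bases.

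The OPC label was checked against marker RNA. Olig1 was at 693 and 571 RNA-seq FPKM in cultures 1 and 2, Ptprz1 at 209.7 and 238, Pdgfra at 53.5 and 31.3, Sox10 at 23.4 and 12.5, Nkx2-2 at 14.9 and 10.9 and Gpr17 at 8.38 and 4.91. The oligodendrocyte cultures had Pdgfra at 105 and 101 RNA-seq FPKM, Sox10 at 101 and 87.6 and Gpr17 at 221 and 271. Nkx2-2 was there at 23.8 and 26.8, Olig1 at 735 and 686 and Ptprz1 at 203 and 248. These markers thus show the lineage and do not set OPCs apart from oligodendrocytes here. The oligodendrocyte genes Mag and Mog were listed at 0 in both OPC RNA-seq libraries, beside 371 and 317 and 39.6 and 21.7 in oligodendrocytes. Csf1r, a microglial receptor, was at 0.0674 and 0 FPKM and Nanog, a pluripotency factor, at 0.0796 and 0.111. The summed RNA-seq FPKM of the 6 OPC markers was 1003 and 869, that of 5 astrocyte markers 244 and 183, mostly from Aldoc with Gfap at 0.155 and 0, and that of 5 neuronal markers 124 and 111, mostly from Map2. The part of such cells in the values below was not tested.

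Values of log2 RD are given for cultures 1 and 2 in this order, with 0 at the median transcript of each culture, which had a footprint to RNA ratio of 1.74 in culture 1 and 1.78 in culture 2. The middle 50% of transcripts lay between -0.66 and 0.61, and RD at the 90th percentile was 5.54 times that at the 10th. Footprint FPKM varied more than RNA-seq FPKM, with SDs of 2.20 and 1.75 on the log2 scale. Across the 7466 transcripts, log2 RD of the 2 cultures had a Spearman correlation of 0.875, with a median absolute difference of 0.27. This correlation is across genes, which are not independent replicates, and both values of a culture rest on 1 lysate. Of all transcripts, 85.7% lay on the same side of the median in both cultures.

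With limma on the 2 ratios of each transcript, 2284 transcripts (30.6%) had an RD above the median at an adjusted p under 0.05 and 2196 (29.4%) below it. RD was at least 2-fold above the median in both cultures for 748 transcripts (10.0%) and at least 2-fold below it for 911 (12.2%). The position of 0 sets these sides. With 0 placed where summed FPKM of footprints and RNA-seq were equal, which moved each value by -0.70, 756 transcripts were above and 4440 below, so that 14.5% of calls were above against 51%. RD is reported here relative to the median transcript. The limma test assumes that a transcript varies about as much as others of similar RNA-seq abundance, and with 1 culture left out between 862 and 903 transcripts were above.

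**Figure D1:**
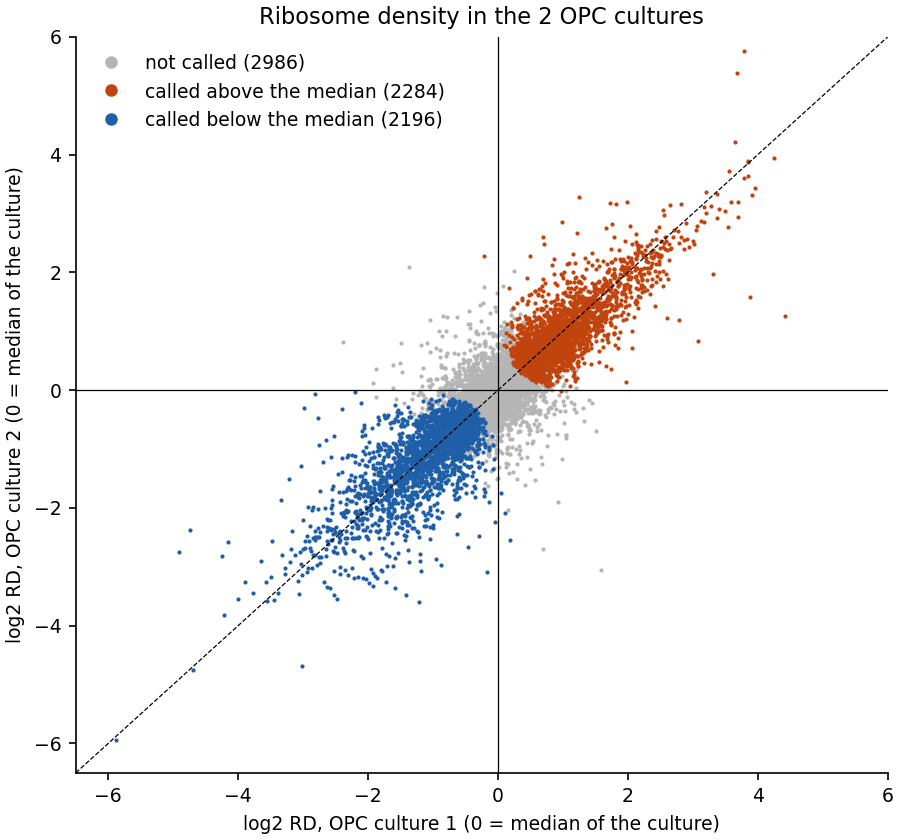
Log2 RD of 7466 transcripts in OPC culture 1 (x axis) and culture 2 (y axis), each with 0 at the median of the culture. Orange points are the 2284 transcripts called above the median by limma, blue points the 2196 called below, and grey points the rest, and the points follow the dashed line of equal values.

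The start codons of 4 transcripts of high and 4 of low RD are shown here, because the bases before and after the ATG are known to bear on initiation. They are taken from the annotated mouse transcripts (Gencode, GRCm38) on the coding strand, with 9 bases before and 1 after the start codon, which is in capitals.
Micos10: gtgaggaacATGt
Sf3b5: agcggcgcgATGa
Uqcrq: gccgtcaccATGg
Hnrnpd: agtagcactATGt
Wdr89: tctactgacATGg
Nsmf: gccgtgaccATGg
Nuak2: ccccgcaccATGg
2610507B11Rik: cggacctaaATGc
The first 4 are from transcripts of high RD and the last 4 from transcripts of low RD. A purine 3 bases before the ATG and a G directly after it, the textbook favourable context, were held by Uqcrq among the first and by Wdr89, Nsmf and Nuak2 among the last. The transcripts lie at chr4:139101814-139131113 (minus strand), chr10:13005343-13009183 (plus), chr11:53427922-53430827 (minus) and chr5:99955935-99978938 (minus) for the first, and at chr12:75630596-75669537 (minus), chr2:25054384-25062881 (plus), chr1:132316126-132333488 (plus) and chr11:78261752-78290623 (plus) for the last.

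Among transcripts with at least 10 RNA-seq FPKM in both cultures, the 12 highest included Tomm6, Hist2h4, Ubl5, Micos10, Ndufab1, Hist4h4, Hist2h2be, Atp5g1, Sf3b5, Uqcrq and Hist2h3c1. They span mitochondrial import and inner membrane proteins, histones and factors of splicing. Micos10, a subunit of the complex that shapes mitochondrial cristae, had 719 and 770.0 footprint FPKM against 28.9 and 34.9 RNA-seq FPKM, so that its log2 RD was 3.84 and 3.63. Its mean of 3.73 ± 0.15 (limma SE, n = 2 cultures) had a limma adjusted p of 8.7e-11. The limma SE draws on the spread of other transcripts and is not that of these 2 values alone. Sf3b5, a small subunit of the splicing factor SF3B, had 522 and 421 footprint FPKM against 25.03 and 25.7 in RNA-seq and log2 RDs of 3.58 and 3.20. Uqcrq, a subunit of respiratory complex III, had 965 and 818 footprint FPKM against 43.0 and 60.2 in RNA-seq, and its 2 log2 RDs, 3.69 and 2.93, lay further apart. All 3 have a short CDS in a long annotated transcript, the CDS making up 9.1% of the bases of Micos10, 6.8% of Sf3b5 and 16.4% of Uqcrq.

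Of these 12 transcripts, 9 share over 10% of their 30-base words or exon bases with another gene, as do 27.1% of all 7466, and reads of such stretches cannot be given to 1 gene with certainty. Tomm6, a small subunit of the mitochondrial import pore, had 605 and 517 footprint FPKM against 27.6 and 15.7 in RNA-seq, but every base of its transcript lies within exons of a second annotated gene, Gm21981. Gm21981 itself was among the 12 lowest, with log2 RDs of -3.39 and -3.45. Hist2h4, a histone H4 gene, had 3753 and 3300 footprint FPKM against 149.7 and 125 and log2 RDs of 3.85 and 3.89, with 13.9% of its CDS words found in other genes.

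Among transcripts with little shared sequence, the highest after Micos10, Sf3b5 and Uqcrq were Hnrnpd, Anapc11, Mrps14, Ly6e, Arpp19, Gtf2h5, Dynll2, Tmco1 and Emc7, a list drawn up after the values were seen. Hnrnpd, an RNA-binding protein that acts on mRNA stability, had 454 and 419.9 footprint FPKM against 23.3 and 28.8 and log2 RDs of 3.49 and 3.03, on about 4031 and 3096 estimated footprints. Anapc11, the RING subunit of the anaphase-promoting complex, had log2 RDs of 3.28 and 3.12, and Gtf2h5, a small subunit of TFIIH, 2.71 and 2.72. Ly6e, a GPI-anchored surface protein, was at 2.55 and 2.98 and Emc7, a subunit of a membrane insertase of the endoplasmic reticulum, at 2.37 and 2.54. The CDS of these 12 transcripts made up a median of 11.7% of the annotated transcript, against 52.6% over all transcripts.

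The 12 lowest were Cox17, Wdr89, Nsmf, Wbp1, Nuak2, 2610507B11Rik, Snx25, Gm21981, Vps54, Wtip, Thap12 and Cers1. Nsmf, a protein that carries signals from synapses to the nucleus, had 1.67 and 2.05 footprint FPKM against 17.9 and 16.2 in RNA-seq and log2 RDs of -4.22 and -3.82, on about 22.1 and 22.5 estimated footprints. Snx25, a sorting nexin, had 4.73 and 5.39 footprint FPKM against 29.7 and 35.9 and log2 RDs of -3.45 and -3.57. Vps54, a subunit of a complex that tethers vesicles at the Golgi, had log2 RDs of -3.57 and -3.26, and Thap12 -3.50 and -3.17. 2610507B11Rik, with a CDS of 6705 bases, had 12.0 and 12.1 footprint FPKM against 94.3 and 74.1 and rested on about 669.6 and 560.3 footprints, the most of the 12. Its log2 RDs were -3.77 and -3.45. Of these 5 the 2 cultures lay closest together in Snx25 and furthest apart in Nsmf.

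In some others of the 12 the 2 cultures lay further apart. Nuak2, a kinase of the AMPK family, had 3.99 and 5.32 footprint FPKM but 68.8 and 20.2 RNA-seq FPKM, which gave log2 RDs of -4.90 and -2.76. Wtip, a LIM domain protein, was at -4.16 and -2.57 and Wbp1, a WW domain binding protein, at -3.02 and -4.69. Cox17, the copper chaperone of cytochrome c oxidase, had the lowest value, with 2.99 and 2.05 footprint FPKM against 101 and 70.7 in RNA-seq. It rested on about 4.8 and 2.7 estimated footprints, and its whole CDS is also part of a second gene, Gm21987, on the same strand, so that its value is uncertain. Wdr89 had 4.88 and 4.72 footprint FPKM against 72.4 and 71.3 and log2 RDs of -4.69 and -4.75, and it shares part of its transcript, though not its CDS, with other genes. Of the 12, 9 have an ATG in the annotated 5′ leader, against 49.7% of all transcripts, while 4 of the 12 highest do.

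**Figure D2:**
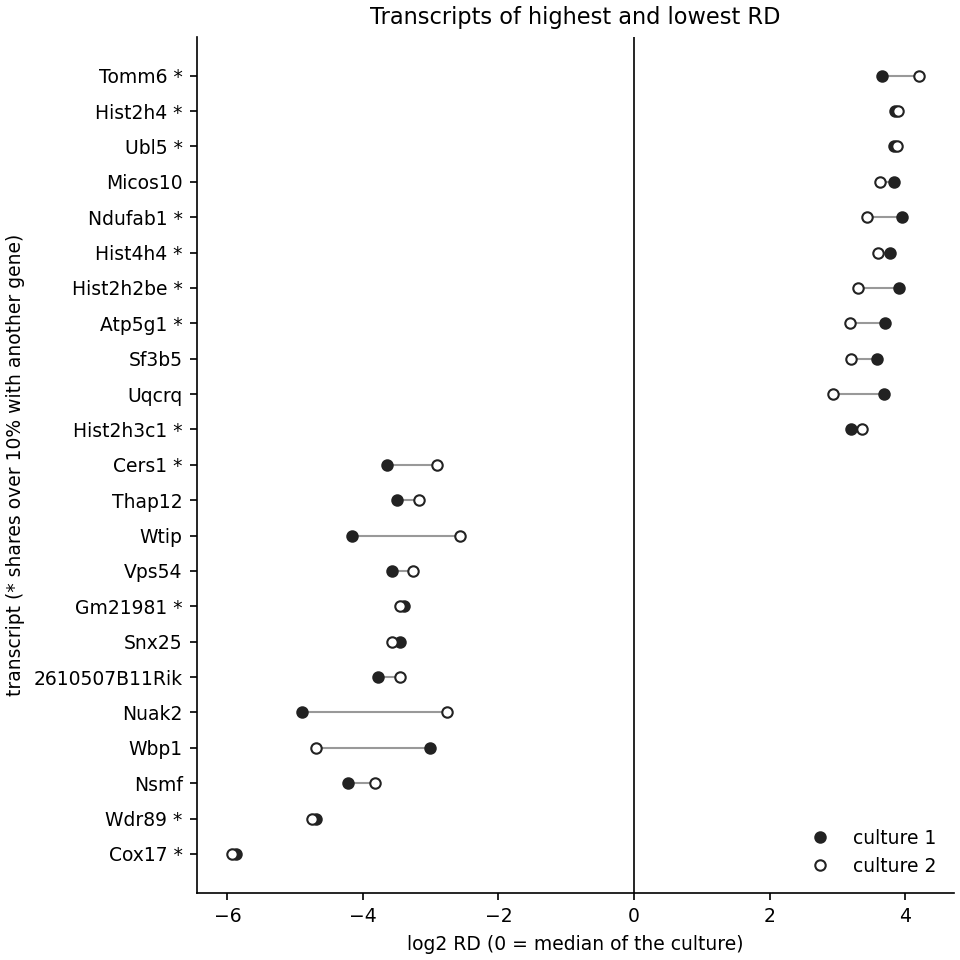
Log2 RD (x axis, 0 at the median of each culture) of 11 of the 12 highest and of the 12 lowest transcripts with at least 10 RNA-seq FPKM in both OPC cultures (y axis), with filled circles for culture 1, open circles for culture 2 and an asterisk where over 10% of words or exon bases are shared with another gene. All 23 lie on the same side of 0 in both cultures, and Nuak2 shows the widest gap between cultures, with -4.90 and -2.76.

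Messages of the actin and microtubule cytoskeleton, in a list that also holds the intermediate filament genes Vim and Nes, and those of replicative histones had the highest medians of the 29 gene lists before any account of CDS length. The median log2 RD of the cytoskeletal list was 1.04 (1.07 and 1.11 in the 2 cultures), 2.06 times the median transcript. Of its 19 messages, 17 were above the median transcript with none below, beside 30.6% of all transcripts above and 29.4% below. The counts of every list and family that follows are to be read beside these 2 shares. Tmsb10 and Tmsb4x, the thymosins that bind actin monomers, were highest with log2 RDs of 1.79 and 2.23 and of 2.25 and 1.76. Tmsb4x alone had 5328 and 6539 footprint FPKM against 642 and 1087 in RNA-seq. Nes, an intermediate filament protein of progenitors, at 0.02 and Tuba1b at 0.17 did not pass the test. Actb had 6225 and 7380 footprint FPKM against 1647 and 1896 and log2 RDs of 1.12 and 1.13, although 45.9% of its CDS words also occur in other genes. The list stood at 0.80 once the median RD of transcripts of like CDS length was subtracted, below extracellular matrix and secreted proteins at 0.88.

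Replicative histones, which package new DNA in S phase, followed with a median of 1.02. They were listed only by symbols that begin with Hist, so the list may hold histones of other kinds. Of the 45, 44 were above the median and 1, Hist1h2aa, was below at -0.48. The 45 took 9.85% and 6.43% of the footprint bases of listed transcripts in cultures 1 and 2. Of the RNA-seq bases they took 3.38% and 2.38%. Footprint bases were taken over the CDS and RNA-seq bases over the whole transcript, so the 2 kinds of share rest on unlike lengths. Hist1h4m had 8704 and 5006 footprint FPKM against 2427 and 1411, and Hist1h3h 8203 and 4865 against 1859 and 1171, so that both assays were higher in culture 1 and the ratios stayed close at 1.04 and 0.99 for the first and 1.34 and 1.22 for the second. Histone copies share most of their sequence, and 1 of the 45 shared under 10% with other genes, at 0.71. Their CDSs are short, with a median of 390 bases, and their median fell to 0.16 against transcripts of like CDS length. Of the 25 factors of DNA replication and its nucleotide supply, 10 were above and 5 below, beside 30.6% and 29.4% of all transcripts. Thymidylate synthase Tyms was at 1.78 and the replisome subunit Gins2 at 1.78, and the catalytic polymerase subunits Pole at -1.14 and Pola1 at -0.91.

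RNA-binding proteins of splicing had a high RD. Of 32 SR and hnRNP factors, 25 were above the median and 1 below, beside 30.6% and 29.4% of all transcripts. Their median of 0.95 stayed at 0.75 against transcripts of like CDS length. Hnrnpd was among the highest, and Tardbp, which binds UG-rich RNA, had 279 and 295 footprint FPKM against 33.2 and 36.3. Hnrnpul1 was below at -0.51, and Srsf11 at -0.02 did not pass the test. For the 14 factors with little shared sequence the median was 0.63.

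Among the parts of the translation apparatus, large subunit ribosomal proteins had a median of 0.63 with 23 of 34 above and 1 below. Small subunit proteins stood at 0.50 with 10 of 20 above and none below, beside 30.6% and 29.4% of all transcripts. Rpl41, the shortest ribosomal protein, had 10327 and 11452 footprint FPKM against 1003 and 1055 and log2 RDs of 2.57 and 2.61, and Rpl28 was at 2.50. Rps20 at 2.28 and Rps16 at 2.18 led the small subunit, while Rps2, at -0.07, did not pass. Rplp0, the stalk protein, was below in both cultures with 560.1 and 576 footprint FPKM against 859.8 and 771. Both medians fell under 0 against transcripts of like CDS length, to -0.01 and -0.26, and 1 of their 54 transcripts shared under 10% with other genes.

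Initiation factors had a median of 0.52, with 16 of 25 above and 4 below, beside 30.6% and 29.4% of all transcripts. The small factors that scan for the start codon led, Eif1ax with log2 RDs of 2.46 and 2.31 and Eif1 with 1.78 and 2.59. The 2 lowest were Eif4g3, a scaffold of the cap-binding complex, at -0.73 and Pabpc1, the poly(A)-binding protein, at -0.57, and both passed the test. Elongation, termination and recycling factors stood at 0.54 with 7 of 9 above, Eif5a at 1.90 and Eef1b2 at 1.52 highest and Etf1 at 0.41 and Eef1a1 at 0.10 lowest, the last not past the test. Cytosolic aminoacyl-tRNA synthetases, which charge tRNAs, were listed with Aimp1 and Aimp2, noncatalytic proteins of the multi-synthetase complex. Their median was 0.13, or 0.46 against like CDS lengths. Of these 17, 5 were above, near the 30.6% of all transcripts, and 1, Mars, was below at -0.38, beside 29.4%. Sars at 0.85, Aimp2 at 0.83 and Wars at 0.63 were the highest. Eprs at -0.28 did not pass, and against like CDS lengths it was above at 0.40 with a limma adjusted p of 0.021.

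Mitochondrial messages of nuclear origin were high as well, beside 30.6% of all transcripts called above and 29.4% below. Mitochondrial ribosomal proteins had a median of 0.80, with 46 of 60 above and 1, Mrpl2, below, where footprints of 74.3 and 79.7 FPKM met 64.7 and 67.3 in RNA-seq. Mrps14 had 267 and 247 against 17.7 and 19.0 and Mrps25 was at 2.63, while Mrpl10 at -0.32 did not pass. Respiratory chain and ATP synthase subunits had a median of 0.72, which was 0.92 in culture 1 and 0.59 in culture 2, with 42 of 58 above and 1 below. Atp5g1, a subunit of the rotor ring of ATP synthase, had log2 RDs of 3.70 and 3.19, but its whole CDS occurs in other annotated genes. Uqcrh was at -0.28 without passing the test. Against transcripts of like CDS length the medians of the 2 lists were 0.22 and 0.06. For their 28 and 24 members with little shared sequence the medians were 0.52 and 0.54.

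Glycolytic enzymes had a median of 0.84, with 11 of 13 above and none below, beside 30.6% and 29.4% of all transcripts. The median stayed at 0.75 against transcripts of like CDS length and was 0.52 for the 4 enzymes with little shared sequence. Eno1, enolase, had 1217 and 1168 footprint FPKM against 229 and 196 and log2 RDs of 1.61 and 1.74. Gapdh was higher still at 2.04, but at 14.5 and 11.5 RNA-seq FPKM, and its whole CDS occurs in other annotated genes. Hk2 at 0.01 and Pfkl at 0.20 did not pass. Sterol synthesis enzymes, which later supply cholesterol to myelin, had a median of 0.39, with 9 of 17 above and 2 below, beside 30.6% and 29.4% of all transcripts. Dhcr7, the last step to cholesterol, had log2 RDs of 1.06 and 2.14 and Idi1 1.46 and 1.52, against -1.09 and -1.09 for Tm7sf2 and -0.79 and -0.84 for Mvk.

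Proteins of folding and turnover were called above the median in most cases, beside 30.6% of all transcripts above and 29.4% below. Proteasome subunits stood at 0.63 with 19 of 27 above and none below, Psmd9 at 1.66 and Psma3 at 1.54 highest and Psmd2 at -0.19 and Psmd1 at -0.07 not past the test. Cytosolic chaperones, listed with the mitochondrial chaperonins Hspd1 and Hspe1, stood at 0.56 with 11 of 14 above and none below, from Cct3 at 0.14 and Tcp1 at 0.25, not called, to Ptges3 at 1.51 and Dnaja1 at 1.64. Folding factors of the endoplasmic reticulum stood at 0.59, 9 of 13 above, and at 0.73 against like CDS lengths. The disulfide isomerase Pdia3 had 1264 and 1323 footprint FPKM against 234 and 201, and Manf was at 1.43. The reductase Dnajc10 was below at -0.81, and Dnajb11 was at 0.03. Of the vacuolar ATPase and lysosomal enzymes, 15 of 20 were above and none below, with a median of 0.57, Atp6v0c at 2.46 and Atp6v0e2 at 2.22 highest and Atp6v0b at -0.15 and Atp6v0a1 at 0.07 lowest without passing.

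Extracellular matrix and secreted proteins had a median of 0.48 with 17 of 29 above and 2 below, and the median rose to 0.88 against transcripts of like, long CDS. Igfbp5, a binding protein of insulin-like growth factors, had 79.6 and 60.3 footprint FPKM against 9.69 and 10.6, and the matrix glycoprotein Sparc 410.2 and 498 against 72.9 and 92.2. Col16a1 was below at -1.30, as was the laminin chain Lama5 at -0.55. Against like CDS lengths the call of Lama5 turned to the other side, at 0.44 with a limma adjusted p of 0.044. Surface receptors stood at -0.27, with 3 of 17 above and 5 below, the latter near the 29.4% of all transcripts. They too have long CDSs, with a median of 3633 bases, and against like lengths their median was 0.66. Pdgfra, the receptor through which PDGFA keeps OPCs dividing, had 116 and 80.4 footprint FPKM against 53.5 and 31.3, and its log2 RDs of 0.32 and 0.53 passed the test with a limma adjusted p of 0.019. Ntrk3, the receptor of neurotrophin-3, was at 1.56 and Egfr at 0.98. Fgfr2 at -1.81, with 4.04 and 5.51 RNA-seq FPKM, and Erbb4 at -1.53, with 2.88 and 3.8, were the lowest.

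Transcription factors of the glial lineage had a median of 0.62, with 12 of 24 above and 2 below, beside 30.6% and 29.4% of all transcripts. Sox10, which directs oligodendrocyte fate, had 86.3 and 44.3 footprint FPKM against 23.4 and 12.5. Both were lower in culture 2 by about as much, and its log2 RDs were 1.08 and 1.00. Olig1 had 1971 and 1459 against 693 and 571 with log2 RDs of 0.71 and 0.52, and Nkx2-2 was at 0.90 and 1.01. Id3 and Id1, which hold back differentiation, were the highest with means of 1.62 and 1.21. The 2 called below were Zeb2 at -0.96 and Hes5, a Notch target, whose cultures differed, -0.29 and -1.30. Gpr17, a receptor of committed progenitors, had log2 RDs of 1.07 and 1.10, while Ptprz1, a surface phosphatase, lay at 0.12 and 0.16 and did not pass. Of the immediate early genes, Jun at 0.70 and Myc at 0.52 were above and the other 9 did not pass, Fos at -0.43 and Fosl2, whose cultures differed, at 0.69 and -2.69 among them.

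Zinc finger genes named Zfp were the largest group of low RD. Their median was -0.82, -0.73 and -0.92 in the 2 cultures, and 128 of 218 were below the median transcript, beside 29.4% of all transcripts, and 7 above. Zfp61 had 1.24 and 1.78 footprint FPKM against 4.75 and 7.65 and Zfp426 2.21 and 2.43 against 7.5 and 7.95, with log2 RDs of -2.74 and -2.93 and of -2.56 and -2.54. Zfp593 at 2.08 and Zfp580 at 1.97, both short, were the highest, though exons of another gene cover 76.9% of Zfp593. The list kept a median of -0.69 against transcripts of like CDS length, and 118 of its 218 transcripts have an upstream ATG, beside 49.7% of all transcripts. Of 293 listed Zfp genes, those under 1 FPKM in any OPC library are not among the 218, and the RD of these is not known.

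Chromatin regulators were low too, with a median of -0.75, 26 of 43 below and 1, Hdac1, above at 0.45. Of all transcripts, 29.4% were below and 30.6% above. The KMT2 family members Kmt2e, with 4.62 and 3.57 footprint FPKM against 13.5 and 12.2, and Kmt2c, with 2.48 and 2.48 against 7.81 and 7.82, were the lowest. Setd7 at 0.23 did not pass. These are long messages, with a median CDS of 4656 bases, and against transcripts of like CDS length the median was 0.06, on the other side of 0.

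**Figure D3:**
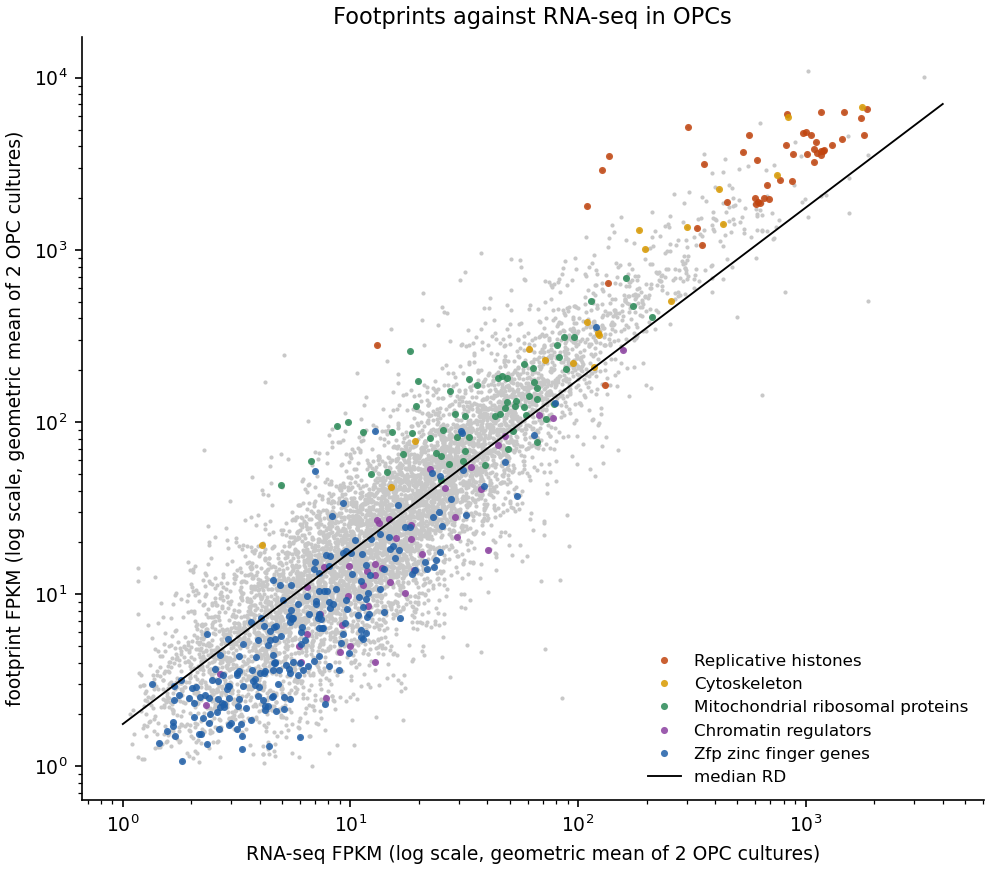
Footprint FPKM on the CDS (y axis, log scale) against RNA-seq FPKM (x axis, log scale), each the geometric mean of 2 OPC cultures, for 7466 transcripts in grey and 5 gene lists in colour, with the median RD as a line. Most histones and cytoskeletal genes lie above the line, and most Zfp genes, with a median log2 RD of -0.82, below it at low abundance.

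Messages known to be held back by upstream open reading frames had a median of -0.82. Of these 11, 6 were below and 1 above, beside 29.4% and 30.6% of all transcripts. An ATG in the annotated leader was present in 9 of the 11, beside 49.7% of all transcripts. At a minimum of 5 FPKM the median was -0.24, and that of the Zfp genes -0.64. Ddit3, a factor of the stress response, had 1.31 and 1.34 footprint FPKM against 12.1 and 8.79 in RNA-seq and log2 RDs of -4.01 and -3.54, on about 5.5 and 4.7 estimated footprints, and its exons overlap a second gene entry. Map3k10 was at -4.25 and -2.81. Slc35a4 had 11.2 and 13.8 footprint FPKM against 43.7 and 31.5 and log2 RDs of -2.77 and -2.02, with 12 ATGs in its annotated leader. Ibtk at -2.14, Ppp1r15b, a regulatory subunit of the phosphatase that acts on eIF2α, at -1.02 and Ifrd1 at -0.82 were below as well. Atf5 was above, with 48.3 and 45.8 footprint FPKM against 16.3 and 15.3 and log2 RDs of 0.77 and 0.75, but did not pass against like CDS lengths, at 0.39 with a limma adjusted p of 0.075. Cebpg at 0.46 did not pass. The 5 of the list with little shared sequence had a median of -0.07.

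Other lists of known control lay nearer the middle. Of the polyamine pathway, spermidine acetyltransferase Sat1, with log2 RDs of -1.19 and -3.08, the frameshifted antizyme Oaz1, with -0.99 and -1.23, and Smox, with -0.73 and -0.81, were below, while the synthases Srm at 0.71 and Sms at 0.59 were above. Selenoproteins, which decode UGA as selenocysteine, had 5 of 16 above and 3 below, beside 30.6% and 29.4% of all transcripts. Their median was 0.13, or -0.39 against like CDS lengths. Sephs2 at -1.44, Selenop at -0.97 and Gpx4 at -0.87 were below, and Selenoi at 1.18 and Msrb1 at 1.04 were the highest. None of the 4 measured carriers of an iron response element passed the test, among them Tfrc, the transferrin receptor, at 0.31, Slc11a2 at 0.09 and the aconitase Aco1 at -0.15. Solute carriers spread on both sides, with 23 of 106 above and 34 below, beside the same 30.6% and 29.4%. They ran from Slc35a4 and Slc7a11, the cystine transporter, the latter at -2.31, to the copper transporter Slc31a1 at 1.77.

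**Figure D4:**
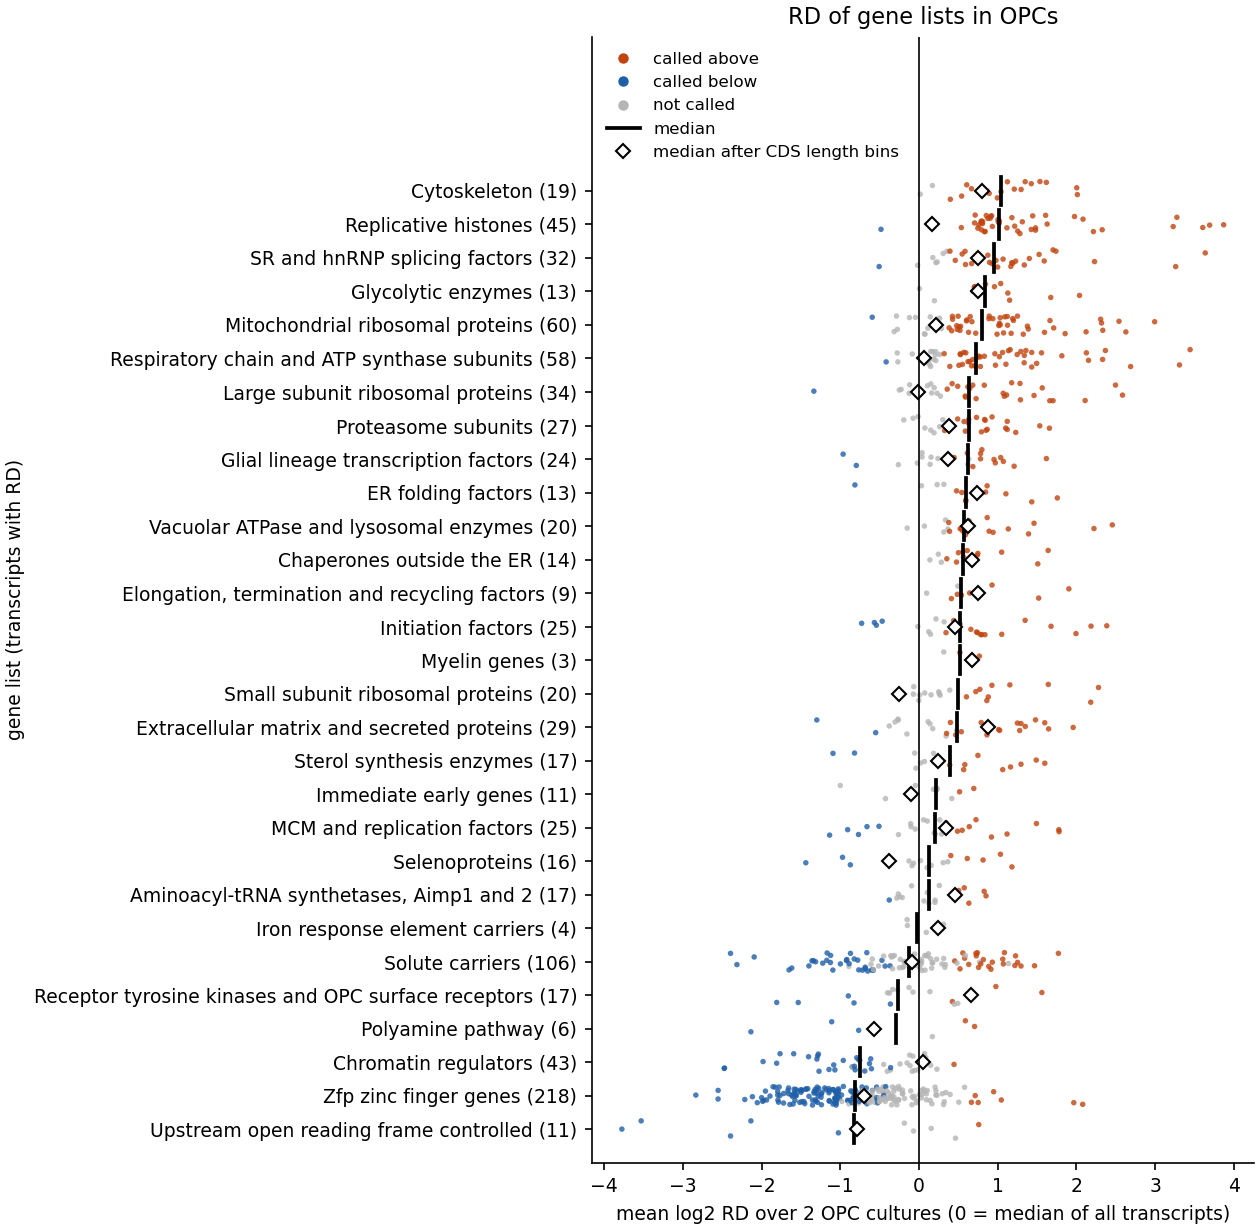
Mean log2 RD over 2 OPC cultures (x axis, 0 at the median of all 7466 transcripts) for the members of 29 gene lists (y axis, number of members in brackets), with orange, blue and grey points for members called above, called below or not called by limma. Bars mark the median of each list and diamonds its median after RD was set against transcripts of like CDS length, which moves ribosomal proteins and chromatin regulators to about 0 and leaves Zfp genes at -0.69.

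RD fell with the length of the CDS. The median was 1.13 for the 151 transcripts with a CDS under 300 bases, 0.31 for 600 to under 1200 bases and -1.02 for the 325 of 4800 bases or more. Of the shortest class 82.1% were called above the median, and of the longest 75.7% below. Spearman's correlation with CDS length was -0.54 over 7466 transcripts, -0.57 in culture 1 and -0.48 in culture 2, and it was -0.52 over the 5441 transcripts with little shared sequence. The length of the 3′ UTR had a correlation of 0.03. Against transcripts of like CDS length, taken in 20 bins, 1836 transcripts were above and 1944 below, and 2935 of the 4480 calls were made again on the same side and 69 on the other.

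RNA-seq was scaled to the whole annotated transcript and footprints to the CDS, and RD also moved with the share of the transcript that is coding. Where the CDS was under 20% of the transcript the median was 0.86, and where it was 80% or more -0.41. Within CDSs of 600 to under 1200 bases, transcripts less than 40% coding had a median of 0.49 and the rest 0.22. Up to 4800 bases, the medians fell with CDS length in both groups. Whether the annotated transcript is the one that these cells make was not tested.

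An ATG in the annotated 5′ leader went with a lower RD. Transcripts with none had a median of 0.22, those with 1 of -0.07, with 2 of -0.33, with 5 to 9 of -0.71 and with 10 or more of -0.64. The share called below the median was 19.9% with none, 54.3% with 5 to 9 and 48.9% with 10 or more. Within CDSs of 1200 to under 2400 bases the medians were 0.07 with none, -0.19 with 1 or 2 and -0.66 with 3 or more. The order held from 600 to under 4800 bases. It was not seen under 300 bases, with 1.14, 1.10 and 1.14, from 300 to under 600 bases, with 0.90, 0.73 and 0.81, or at 4800 bases or more, with -0.73, -1.24 and -1.15. Ubl5, a ubiquitin-like protein of splicing, and Sf3b5 were among the highest, with 20 and 43 upstream ATGs in their annotated leaders, though exons of another gene cover 68.6% of Ubl5. RD differed less by start context. The median was 0.07 where the base 3 before the ATG was A, 0.03 for G, -0.22 for C and -0.29 for T, and the 3443 transcripts with a purine there and G after the ATG stood at 0.08.

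**Figure D5:**
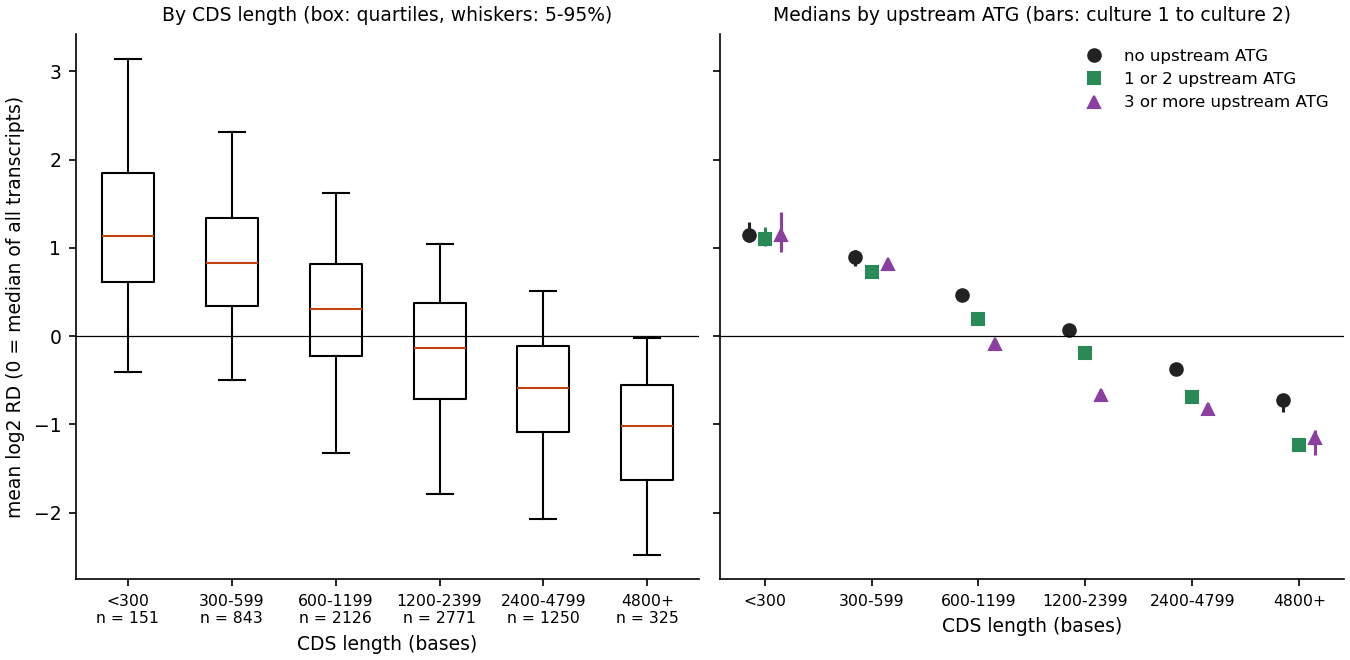
Mean log2 RD (y axis, 0 at the median of all transcripts) by CDS length in bases (x axes). Left, boxes give the quartiles and whiskers the 5th and 95th percentiles of 6 length classes, with medians from 1.13 to -1.02, and right, points give the medians of transcripts with no, 1 or 2, or 3 or more upstream ATGs, with bars from the culture 1 to the culture 2 median.

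The study followed the modification of tRNAs that read the codons of phenylalanine and lysine. As an average over whole messages, RD moved little with the choice of UUU or AAA among these codons. The median was 0.19 in the fifth of transcripts with the lowest share of UUU among phenylalanine codons and -0.08 in the fifth with the highest, and for AAA among lysine codons 0.15 and -0.18. The Spearman correlations were -0.10 and -0.11, and -0.04 and -0.07 against like CDS lengths. Abundant messages had a higher RD, with a median of 0.46 in the fifth with the most RNA-seq FPKM and -0.21 in the fifth with the least, or 0.14 and -0.08 against like CDS lengths. The Spearman correlation with RNA-seq abundance was 0.22, and 0.08 against like CDS lengths.

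Fabp7, the brain fatty acid binding protein of progenitors, and Rpl41 had the most footprint FPKM of all, which is scaled to CDS length. By estimated footprints, Rpl41 with about 6691 and 6166 stood under Actb with about 58328 and 57466. Fabp7 had 11206 and 9194 footprint FPKM against 3199 and 3446 in RNA-seq, so that its log2 RDs, 1.01 and 0.58, were moderate beside its abundance. Cnp, an early myelin enzyme, had 93.3 and 73.1 footprint FPKM, log2 RDs of 0.98 and 0.55 and a mean of 0.77 ± 0.16 (limma SE). Of the 10 listed myelin genes 3 entered, Cnp, Bcas1 at 0.52 and Ugt8a at 0.31, the last not past the test. Cdipt, which makes phosphatidylinositol, was above the median with log2 RDs of 0.49 and 1.11, and Rlim, a ubiquitin ligase, lay at 0.12 and -0.24 and did not pass.

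Some transcripts with ample RNA had hardly any footprints. The transcripts named here were chosen after their values were seen. Of the 20 with at least 10 RNA-seq FPKM in both cultures and under 1 footprint FPKM in 1 or both, Hes7, a transcriptional repressor, was listed at 0 footprint FPKM in both cultures beside 2396 and 3162 in RNA-seq, and Tmem38b, an ion channel of the endoplasmic reticulum, at 0 and 3.28 beside 5286 and 4364. A gene on the opposite strand overlaps 12.9% of the Hes7 transcript and a 5S ribosomal RNA gene 4.2% of that of Tmem38b. The part of reads from these genes in the RNA-seq values was not tested. Shc3, a signalling adaptor, had 6.15 and 0 footprint FPKM beside 26.7 and 28.6 in RNA-seq, and Rnf225 0.141 and 0.159 beside 14.4 and 11.6. Smim14 and Chchd5 were listed at 0 footprints in culture 2 alone, beside 95.5 and 76.4 footprint FPKM in culture 1. Among the 4410 transcripts that entered with at least 10 RNA-seq FPKM in both cultures, Gm20594 differed most between them, with 7548 and 352 footprint FPKM at 1451 and 1639 in RNA-seq. Rmnd5b, with 10.4 and 1.59 footprint FPKM, Gltp, with 30.4 and 6.59, and Hint2, with log2 RDs of 0.68 and -1.25, followed, beside Nuak2.

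In oligodendrocytes, RD was compared for the 6325 transcripts with 1 FPKM or more in all 8 libraries, and 11 (0.174%) were lower and 2 (0.0316%) higher than in OPCs by limma. With OPC and oligodendrocyte cultures of the same number taken as pairs, a block on the number gave 244, of which 211 were lower in oligodendrocytes. Without the block the adjusted p of the 13 was 0.049999 throughout, at the threshold, and 557 had an unadjusted p under 0.05. Most of the 11 encode ribosomal proteins. The median of the 34 large subunit messages was 0.58 in OPCs and -0.26 in oligodendrocytes, that of the 20 small subunit messages 0.44 and -0.37, and all 54 were lower in oligodendrocytes, as were 51.2% of all 6325. Of the large subunit messages 5 passed the test and of the small subunit 3. Tpt1, a growth-linked protein, had a mean log2 RD of 1.08 in OPCs and log2 RDs of -0.79 and -0.49 in the 2 oligodendrocyte cultures. No transcript passed without oligodendrocyte culture 2 or with no trend in the fit, and without oligodendrocyte culture 1 the fit called 855.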

How the data were processed

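Ribosome footprints and RNA-seq were measured in 8 libraries, from 2 OPC and 2 oligodendrocyte cultures. The authors deposited FPKM per transcript, footprints counted on the coding sequence and RNA-seq on the whole canonical transcript. HISAT2 2.1.0, StringTie 1.3.5 and the build mm10 (GRCm38) are named in the submitters' processing notes. FPKM give no counts. Depth was estimated from the smallest steps between low values, and could be a whole multiple larger, so estimated footprints are approximate. No column belonged to other samples (0 unused). Transcripts with 1 FPKM or more in all 4 OPC columns entered, with no pseudocount.

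Log2 footprint to RNA-seq ratios were taken within each culture, less the culture's median, and their mean was tested against 0 with limma 3.58.1 in R 4.3.3, with a trend of the variance on RNA-seq abundance and Benjamini-Hochberg adjustment over all transcripts. The ratio pairs libraries of 1 lysate, and their deviations had a Pearson correlation of 0.338. The code was tested on simulated data. Lengths, leaders, start contexts and overlaps came from the Gencode annotation in hand (Python 3.11.15), a later release than the authors' own. A transcript was said to share with another gene where over 10% of its 30-base words or exon bases did.

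The genes named were the 12 highest and 12 lowest called transcripts on 1 side of the median in both cultures. These had 10 RNA-seq FPKM or more in both. With them came the 2 highest and 2 lowest of each list, the 5 with the most footprint FPKM and the 5 that differed most between cultures. The OPC markers, Cnp, Cdipt and Rlim were named too. Some genes that this rule names are not reported here. Other genes were named after their values were seen. The members and gene lists were chosen with earlier results of these data known. Nothing says that replicates are separate derivations, so p-values measure the spread between these cultures only.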

Additional observations from a re-analysis of the deposited data

Results flagged for a closer look

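RD of 13 transcripts differed between oligodendrocytes and OPCs by a limma test of the difference itself, with an adjusted p of 0.049999 for each. As log2 differences, oligodendrocytes minus OPCs, 11 were lower in oligodendrocytes. The growth-linked Tpt1 stood at -1.72, and its footprint FPKM were 1599 and 1960 in OPCs, with 493 and 426 in RNA-seq, and 856 and 931 in oligodendrocytes, with 705 and 661 in RNA-seq. The small subunit ribosomal proteins Rps27, Rps19 and Rps3a1 stood at -1.40, -1.37 and -1.10, and the large subunit proteins Rpl36a, Rpl27a, Rpl17, Rpl13 and Rpl9 at -1.32, -1.27, -1.23, -1.16 and -1.12. Arpc1a, a subunit of the actin-nucleating Arp2/3 complex, stood at -1.34, and the gene model Gm5148 at -1.32. The 2 that were higher in oligodendrocytes were Chn2, a Rac GTPase-activating protein, at 1.51 and March8, a membrane-bound ubiquitin ligase, at 1.95. March8 had 5.75 and 3.07 footprint FPKM in OPCs, with 19.8 and 17.8 in RNA-seq. In oligodendrocytes it had 130.1 and 125, with 144 and 121 in RNA-seq, so that its RNA rose as well. All 13 adjusted p-values lie at the threshold, and they were lost without oligodendrocyte replicate 2. With a block on the culture number 244 differed, 211 of them lower in oligodendrocytes.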

How the results depend on the processing

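The 2 cultures and FPKM without counts limit these results: 37 transcripts rested on under 10 estimated footprints in a culture, and the SE of the fit had a median of 0.19 against 0.089 from counting alone. With 1 culture left out, the lone ratio is assumed to vary as the oligodendrocyte cultures do. The trend on the mean and the omission of transcripts that share sequence or exons were chosen after seeing the data.

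Without the replicate block, 1806 transcripts were above the median and 1747 below, and all 3553 were among the 4480 calls. With OPC and oligodendrocyte cultures of 1 number taken as pairs, a replicate block gave 244 differences, 211 of them lower in oligodendrocytes, against 13 without it. Without trend there were 0, at a minimum of 5 FPKM 41, and with 1 culture left out 0 to 855, 0 without OL replicate 2, 855 without OL replicate 1, 6 without OPC replicate 2.

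With 0 at equal sums, 756 were above and 4440 below, 211 at least 2-fold above and 2305 at least 2-fold below. Without transcripts that share, 1400 of 5441 were above. With all transcripts in the fit, 25.9% of these and 43.3% of those that share were. With 1 culture left out 862 to 903 were above and 733 to 735 below. With CDS length bins subtracted 436 were at least 2-fold above, and at a minimum of 5 FPKM 572 of 5609 at least 2-fold below. The interquartile range of log2 RD, 1.28, was 1.18 at 5 FPKM, 1.22 with a pseudocount of 1 FPKM, 1.02 with length bins, 1.21 without transcripts that share and 1.29 to 1.31 with 1 culture left out. The Spearman correlation with upstream ATGs, -0.276, was -0.253 at 5 FPKM, -0.232 with length bins, -0.289 without transcripts that share and -0.260 to -0.274 with 1 culture left out. The cause was not tested. The correlation with CDS length, -0.54, was -0.478 without culture 1 and -0.575 without culture 2, and from -0.52 to -0.55 under the other alternatives run. The count of list medians above 0, 22 of 29, ranged from 20 to 23.

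Some values changed side of 0. With CDS length bins subtracted, list medians were -0.0094 for large and -0.26 for small subunit ribosomal proteins, 0.24 for iron response element carriers, -0.39 for selenoproteins, -0.097 for immediate early genes, 0.056 for chromatin regulators and 0.66 for receptors. Without transcripts that share they were -0.067 for small subunit proteins, -0.10 for replication factors and 0.093 for iron response element carriers, which also stood at 0.011 with the pseudocount and from -0.066 to 0.018 with 1 culture left out. The polyamine median was 0.061 at 5 FPKM. Under length bins Aco1 stood at 0.25, Cebpg at -0.38, Dnajb11 at -0.14, Eif4g3 at 0.26, Eprs at 0.40, Fabp7 at -0.043, Hist1h4m at -0.035, Hist2h2bb at -0.52, Lama5 at 0.44, Mars at 0.028, Msrb1 at -0.019, Psmd1 at 0.53, Psmd2 at 0.21, Rlim at 0.19 and Srsf11 at 0.034. Of these Lama5 and Hist2h2bb were called on both sides, and Eprs and Psmd1 came to pass above. At 5 FPKM Atp6v0a1 stood at -0.041, Dnajb11 at -0.077, Eef1a1 at -0.012, Hk2 at -0.10, Nes at -0.093 and Slc11a2 at -0.016. With the pseudocount Hk2 stood at -0.0033 and Srsf11 at 0.026, and at 0.1 FPKM Srsf11 at 0.025. With 1 culture left out Atp6v0a1 ranged from -0.34 to 0.47, Dnajb11 from -0.14 to 0.20, Fos from -1.35 to 0.50, Fosl2 from -2.69 to 0.69, Gltp from -2.08 to 0.11, Gm20594 from -3.05 to 1.58, Hint2 from -1.25 to 0.68, Hk2 from -0.058 to 0.070, Psmd1 from -0.28 to 0.13, Rlim from -0.24 to 0.12, Rps2 from -0.25 to 0.11 and Srsf11 from -0.32 to 0.29.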

Other observations

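Gene families by the start of the symbol, with at least 12 members and chosen after their values were seen, showed further groups of high and low RD. The SOX transcription factors had a median log2 RD of 0.72, with 9 of 12 above the median transcript and none below, and kept 0.73 against transcripts of like CDS length. The Rab GTPases of membrane traffic had a median of 0.60 with 16 of 31 above and 3 below, and 0.04 against like CDS lengths. Rab11b, of recycling endosomes, had 95.4 and 107 footprint FPKM against 6.1 and 6.9 in RNA-seq, and Rab7, of late endosomes, had log2 RDs of 1.71 and 1.74. Ankyrin repeat genes named Ankrd were the lowest family, with a median of -1.21, none of 13 above and 9 below, and -1.01 against like CDS lengths. The ubiquitin-specific proteases named Usp had a median of -0.80, with 19 of 31 below and 2 above, and -0.27 against like CDS lengths. Usp34 had 6.72 and 6.97 footprint FPKM against 29.2 and 23.0 and log2 RDs of -2.92 and -2.56, and Usp1, which acts in DNA repair, had -1.68 and -1.38. The kinesin motors named Kif had a median of -0.58, and 0.17 against transcripts of like, long CDS.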
